A study of Homo sapiens with 8 samples.

Results

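The results describe 10 genes of nicotinamide adenine dinucleotide (NAD) synthesis and use: QPRT, NAPRT, NAMPT, NADSYN1, NMNAT1, NMNAT3, NADK, NADK2, NNT and NNMT. They were measured by RNA sequencing in DLD1, a human colorectal cancer cell line. All 10 were among the 58302 genes of the count table, and all 10 had enough counts to be among the 14133 genes tested. QPRT was chosen because it had the largest fall in the comparison of the 2 groups among genes with a mean of 50 counts or more, an adjusted p below 0.05 and no overlap between groups, and the other 9 were chosen around it by function. The contrast between the groups was therefore used to choose them, and their values in that contrast are given as a description, without p-values. The other members of the pathway, the position of the genes, their sequences and the levels of the members relative to each other within a library were not used in the choice. A change between groups in the level of QPRT relative to the others restates the fall that chose it.

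OE-WT cells stably carried lentiviral transgenes for wild-type TRMT6 and TRMT61A, and CTRL cells carried the empty vector on the same DLD1 background. TRMT6 and TRMT61A form the complex that writes N1-methyladenosine (m1A) into transfer RNA. Each group had 2 libraries, prepared from cells washed with cycloheximide, an inhibitor of translation, and the submitters describe the cultures as duplicates. The totals were between 10327498 and 12379671 counts per library. Because each group is a single labelled cell population, a difference between the populations that is unrelated to the transgenes cannot be told apart from an effect of the transgenes, and the tests measure only the spread between these libraries.

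TRMT6 was at 211 and 181 CPM (counts scaled to library size, with sizes adjusted by edgeR's trimmed mean of M-values) in OE-WT and at 52.6 and 55.4 CPM in CTRL. TRMT61A was at 138 and 130 CPM in OE-WT and at 58.9 and 56.8 CPM in CTRL, so both transgenes were high in the libraries labelled with them. Of 9 markers of colon epithelium, 8 were above the floor of 3 counts in every library, and CDX1 was below it. Their summed level was 11479 and 11771 CPM in OE-WT and 10344 and 10116 CPM in CTRL. By the quasi-likelihood test of edgeR with adjustment after Benjamini-Hochberg, 2 of the 8 tested markers rose and 2 fell. KRT8 and KRT18 rose, by 0.25 (adjusted p = 0.0173) and 0.30 (adjusted p = 0.00512) on the log2 scale. KRT20 fell by 1.52 (adjusted p = 7.0e-08) and CDH1 by 0.29 (adjusted p = 0.0032) on the same scale, and their part in the values of the members was not tested. The 9 stromal, immune and endothelial markers summed to between 2.65 and 3.89 CPM in the 4 libraries, 2 or 3 of them were above the floor in each, and COL1A2, DCN and CD3E were at 0. The collagen COL1A1 was above the floor in every library, with 22 and 18 counts in OE-WT against 19 in each CTRL library. The endothelial gene VWF passed the test with 5 and 6 counts in OE-WT against 30 and 14 in CTRL, and the part of such genes in the values of the members was not tested. Across the 14133 genes, 2976 passed an adjusted p of 0.05 (21.1%), of which 1334 were higher in OE-WT (9.44%) and 1642 lower (11.6%). With scaling by library totals alone the balance was 733 higher and 2451 lower.

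NAD is the carrier of electrons in energy metabolism and the substrate that sirtuins and poly(ADP-ribose) polymerases consume, so cells must keep replacing it. Human cells enter NAD synthesis by separate routes: from tryptophan through the kynurenine pathway, which ends in quinolinic acid and QPRT; from nicotinic acid through NAPRT (the Preiss-Handler route); from nicotinamide through NAMPT (salvage); and from nicotinamide riboside through the NMRK kinases. The routes meet at the NMNAT enzymes, which join the mononucleotide to the adenylyl part of ATP, and NADK then makes NADP for reductive synthesis and for defence against oxidants. Many tissues rely on the salvage of nicotinamide, and NAPRT is expressed in some tumours and silent in others.

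QPRT (quinolinate phosphoribosyltransferase, ENSG00000103485, chr16:29663279-29698699 of GRCh38, plus strand) is the enzyme that brings the tryptophan-derived route into NAD synthesis. Its starting region is shown because it is the member with the largest fall. NADK is shown because it is the other member that passed the test, and NAMPT because it is the enzyme of salvage and did not pass the test. The sequences are the 250 bases before the RefSeq gene start (GRCh38.p14), in the direction of the gene, and the capitals mark each CG. QPRT lies at chr16:29678930-29679179 (plus strand), NADK at chr1:1778817-1779066 (minus strand) and NAMPT at chr7:106284984-106285233 (minus strand). The start used for QPRT is that of its canonical transcript and lies inside the gene span given above. The bases before the outer start of that span were not examined.
QPRT: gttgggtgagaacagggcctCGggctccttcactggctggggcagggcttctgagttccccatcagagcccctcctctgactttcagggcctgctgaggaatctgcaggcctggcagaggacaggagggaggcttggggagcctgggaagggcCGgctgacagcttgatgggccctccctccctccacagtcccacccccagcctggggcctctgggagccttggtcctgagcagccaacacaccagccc
NADK: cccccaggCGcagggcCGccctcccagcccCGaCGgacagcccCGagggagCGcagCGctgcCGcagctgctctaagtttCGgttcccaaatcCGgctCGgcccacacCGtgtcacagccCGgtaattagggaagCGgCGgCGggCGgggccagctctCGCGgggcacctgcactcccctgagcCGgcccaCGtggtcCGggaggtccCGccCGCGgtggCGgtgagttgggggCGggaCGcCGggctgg
NAMPT: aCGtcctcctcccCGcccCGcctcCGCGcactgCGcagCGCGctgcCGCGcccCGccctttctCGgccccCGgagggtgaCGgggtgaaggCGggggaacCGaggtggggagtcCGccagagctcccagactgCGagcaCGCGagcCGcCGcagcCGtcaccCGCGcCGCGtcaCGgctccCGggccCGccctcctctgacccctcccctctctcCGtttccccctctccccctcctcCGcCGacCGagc

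The window of QPRT holds 2 CG, that of NADK 29 and that of NAMPT 34. The GC content of the QPRT window is 66.4%, against a median of 62.0% over the 19090 genes with a window. Its ratio of observed to expected CpG is 0.0726, which is at percentile 5.13 of these genes, against a median of 0.718. Windows were found for 8 of the 10 members, and the other 7 have between 14 CG (NMNAT3) and 34 CG (NAMPT), with ratios from 0.722 (NMNAT1) to 0.976 (NAMPT). QPRT is the single member of the 8 with a ratio below the median of all genes. The members without a window are NAPRT and NNMT.

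**Figure D1:**
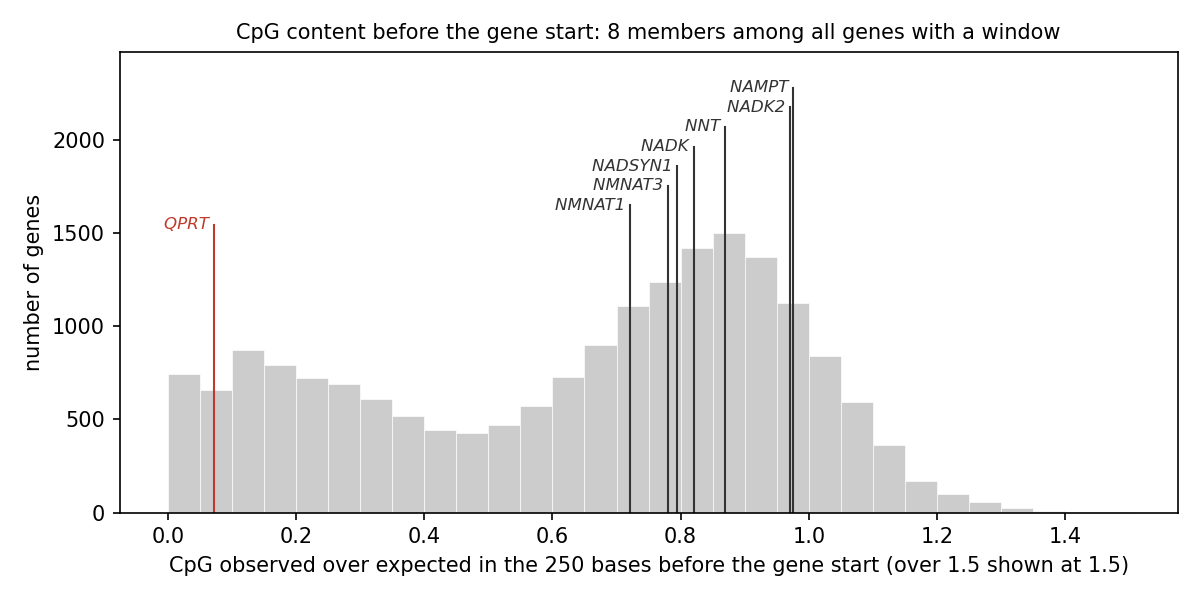
The grey bars count genes by the ratio of observed to expected CpG in the 250 bases before the gene start, over 19090 genes, and each line marks a member. QPRT stands at 0.0726, and the other 7 members with a window stand between 0.722 and 0.976.

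The windows were searched on both strands for 5 motifs: the GC box GGGCGG, the CCAAT box CCAAT, the TATA box TATAAA, the E-box CACGTG and the cAMP response element TGACGTCA. None of these letters are in the QPRT window. The GC box is in 53.9% of all windows and in the windows of the other 7 members, with 6 matches for NMNAT3, 5 for NADSYN1, 4 for NADK, 3 for NAMPT and NADK2, 2 for NNT and 1 for NMNAT1. CCAAT is in 34.2% of all windows and in those of NADK2 and NMNAT1, and CACGTG is in 7.43% and in those of NADK and NNT. TATAAA is in 9.49% of all windows and TGACGTCA in 2.29%, and neither is in a member's window. A match of letters is a description of the window and shows no bound factor. Of the 109 tested genes with a CpG ratio at or below that of QPRT, 11.01% were lower in OE-WT at an adjusted p below 0.05 and 6.42% were higher, while of the 10067 above it 11.9% were lower and 10.3% were higher. The 109 include QPRT itself, whose own ratio set the cut. The shares of the 109 rest on 12 lower and 7 higher genes, so nothing is read from this comparison. A link between CpG content and the fall of QPRT was not tested.

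For QPRT, 24 and 16 reads were counted in OE-WT, against 159 and 126 in CTRL. These are 2.42 and 1.57 CPM in OE-WT, with exact Poisson 95% intervals of 1.55 to 3.60 and 0.899 to 2.55, and 12.4 and 10.2 CPM in CTRL, with intervals of 10.5 to 14.4 and 8.52 to 12.2. The intervals cover counting error only. Both OE-WT libraries were low and both CTRL libraries high, and neither the values nor the intervals of the 2 groups overlap. The choice of QPRT required groups that do not overlap, so this separation is a description and no support for the fall. The mean was 2.00 ± 0.598 CPM in OE-WT and 11.3 ± 1.51 CPM in CTRL (SD, n = 2 each), which is a log2 fold change of -2.50 (SE 0.23), or 5.65-fold lower in OE-WT. QPRT was still detected in both OE-WT libraries, since 3 counts are at most 0.302 CPM there. In bulk libraries, fewer cells with QPRT RNA and less of it per cell cannot be told apart.

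Under the rule that named QPRT, the gene just behind it was ADAM19, a membrane metalloprotease, at -2.49 (SE 0.28) with a mean of 52.75 counts against 81.25 for QPRT. The difference between these 2 log2 fold changes is much smaller than either SE, so the first place of QPRT is not separated from the second. The third was the long noncoding RNA gene ENSG00000258525 at -2.15 (SE 0.21). A log2 fold change below -1 with an unadjusted p below 0.05 was reached by 318 genes, 2.25% of those tested, and by QPRT as the single member.

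NAPRT (chr8:143574785-143578649, minus strand), which starts the route from nicotinic acid, was at 88.2 and 94.4 CPM in OE-WT and at 86.5 and 92.0 CPM in CTRL. The libraries of the groups overlap, and the log2 fold change was 0.03 (SE 0.07). NAMPT (chr7:106248298-106285966, minus strand), the rate-limiting enzyme of nicotinamide salvage, was at 46.7 and 42.2 CPM in OE-WT and at 38.8 and 41.5 CPM in CTRL. Its groups do not overlap, but the highest CTRL library lay just under the lowest OE-WT library, and the log2 fold change of 0.15 (SE 0.09) did not pass the test. The mean CPM of both enzymes was thus at or above the CTRL level in OE-WT. NAPRT turned to a log2 fold change of -0.06 when only the library totals were used for scaling. The direction also depends on the measure, since both enzymes were lower in OE-WT when counts were divided by combined exon length, as given below.

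NADSYN1 (chr11:71453109-71524107, plus strand) turns the nicotinic acid form of the dinucleotide into NAD, so both the QPRT and the NAPRT routes end in it. It was at 26.8 and 23.4 CPM in OE-WT and at 26.7 and 26.1 CPM in CTRL, with a log2 fold change of -0.07 (SE 0.10). NMNAT1 (chr1:9943428-9985501, plus strand), the nuclear adenylyltransferase, was at 7.96 and 8.06 CPM in OE-WT and at 7.46 and 9.17 CPM in CTRL. NMNAT3 (chr3:139560180-139678017, minus strand), the mitochondrial form, was at 2.72 and 1.97 CPM in OE-WT and at 2.72 and 2.44 CPM in CTRL. The groups overlap for all 3 of these shared last steps, and the log2 fold changes of NMNAT1 and NMNAT3 were -0.05 (SE 0.17) and -0.14 (SE 0.29).

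NADK (chr1:1751232-1780457, minus strand), the cytosolic kinase that makes NADP from NAD, was the other member that fell. It was at 29.2 and 28.2 CPM in OE-WT and at 39.3 and 34.7 CPM in CTRL. Both OE-WT libraries were below both CTRL libraries, and the means were 28.7 ± 0.714 and 37.0 ± 3.19 CPM (SD, n = 2 each), a log2 fold change of -0.37 (SE 0.10) or 0.775 of the CTRL level. This call rested on the first CTRL library and on the test: without that library the value was -0.28 and did not pass, and DESeq2 gave -0.37 and did not pass. NADK2 (chr5:36192589-36242279, minus strand), the mitochondrial kinase, was at 7.56 and 6.49 CPM in OE-WT and at 5.05 and 6.41 CPM in CTRL. Its values lay in the opposite direction to those of NADK, with a log2 fold change of 0.29 (SE 0.20) that did not pass the test.

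NNT (chr5:43602692-43707405, plus strand), the mitochondrial transhydrogenase that passes electrons from NADH to NADP, was at 11.7 and 12.0 CPM in OE-WT and at 10.2 and 12.7 CPM in CTRL. NNMT (chr11:114257787-114313536, plus strand), which methylates nicotinamide and so takes it out of salvage, was at 1.61 and 2.16 CPM in OE-WT and at 1.01 and 1.62 CPM in CTRL. The log2 fold change was 0.05 (SE 0.15) for NNT and 0.52 (SE 0.36) for NNMT. NNMT rests on 13 to 22 counts per library, its groups overlap and it did not pass the test.

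**Figure D2:**
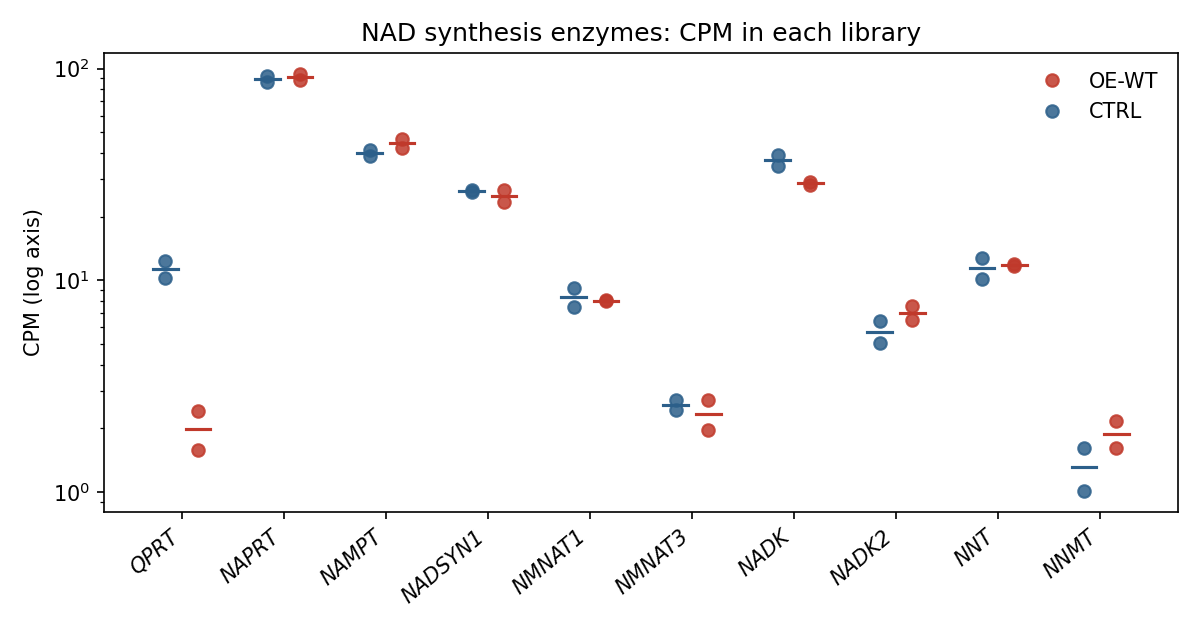
CPM of each member in each library on a log axis, with CTRL in blue, OE-WT in red and bars at the group means (2 libraries each). QPRT falls from 11.3 to 2.00 CPM on average, NADK from 37.0 to 28.7 CPM, and the points of NAPRT, NADSYN1, NMNAT1, NMNAT3, NNT and NNMT overlap between groups.

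Of the 10 members, 2 were lower at an adjusted p below 0.05 (QPRT and NADK), beside 11.6% of all genes tested. The choice of QPRT required its call, so nothing is read from this count. By edgeR's test 0 were higher, as by DESeq2, and 0 were higher at an unadjusted p below 0.05. The libraries of the groups did not overlap for 4 of the 10 (QPRT, NADK, NAMPT and NADK2), with QPRT among them by the rule of its choice. They did not overlap for 60.2% of all genes, so separation of 2 against 2 libraries was common in these data. The 9 members without QPRT had log2 fold changes between -0.37 and 0.52 with a median of 0.03, 5 above 0 and 4 below, against a median of 0.01 over all genes. For 5 of these 9 the SE was larger than the difference itself.

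The summed level of the 9 members without QPRT was 222.5 and 218.9 CPM in OE-WT and 217.6 and 226.6 CPM in CTRL, and the groups overlap. QPRT made up 1.07% and 0.713% of the summed CPM of the 10 members in OE-WT and 5.37% and 4.32% in CTRL. To compare levels between genes, counts were divided by gene length and scaled to the same sum in each library (TPM, the usual abundance per length). With the combined length of all annotated exons, NAPRT was highest in CTRL at 63.3 ± 0.215 TPM, followed by NADK at 13.4 ± 1.69, QPRT at 6.20 ± 1.07 and NMNAT1 at 3.62 ± 0.384 TPM (SD, n = 2). The CTRL libraries of NMNAT1 overlap those of NAMPT, the next at 3.43 ± 0.0261 TPM, and NADSYN1 (3.27), NADK2 (2.30), NNT (1.92), NNMT (1.02) and NMNAT3 (0.401) followed, each in TPM and without overlap with its neighbour. In OE-WT the order was NAPRT (56.4), NADK (9.01), NAMPT (3.29), NMNAT1 (3.04), NADSYN1 (2.69), NADK2 (2.44), NNT (1.72), NNMT (1.28), QPRT (0.940) and NMNAT3 (0.314), in TPM, and QPRT overlapped NNMT. QPRT thus went from the third place in CTRL to the ninth in OE-WT, which restates its fall and is no separate support for it. On this scale NAPRT was at 52.2 and 60.7 TPM in OE-WT and at 63.2 and 63.5 TPM in CTRL. NAMPT was at 3.32 and 3.26 TPM in OE-WT and at 3.41 and 3.44 TPM in CTRL. Both were lower in OE-WT without overlap, the reverse of their mean CPM, and these TPM differences were not tested.

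The order depends on the length used, because the annotated exons of NAMPT add up to 23584 bases and those of its canonical transcript to 4360. With canonical transcripts, NADSYN1 (14.5 TPM) and NAMPT (13.5 TPM) stood between NADK (16.8 TPM) and QPRT (7.56 TPM) in CTRL, and QPRT was last in OE-WT at 1.20 TPM, overlapping NNMT at 1.26 TPM. NAPRT was first under both lengths, and QPRT was the third or the fifth in CTRL. With canonical transcripts the TPM of the groups overlap for NAPRT and for NAMPT. Among the entry enzymes of the 4 routes (QPRT, NAPRT, NAMPT and NMRK1), QPRT held 7.74% and 6.28% of the summed TPM per canonical transcript in CTRL and 1.58% and 0.986% in OE-WT. NAPRT held 70.9% and 73.9% in CTRL and 75.3% and 77.5% in OE-WT. With all annotated exons, the share of QPRT was 8.72% and 7.07% in CTRL and 1.82% and 1.12% in OE-WT. The shares of the other enzymes can rise in such a sum when that of QPRT falls, and the smaller share of QPRT restates the fall that chose it.

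**Figure D3:**
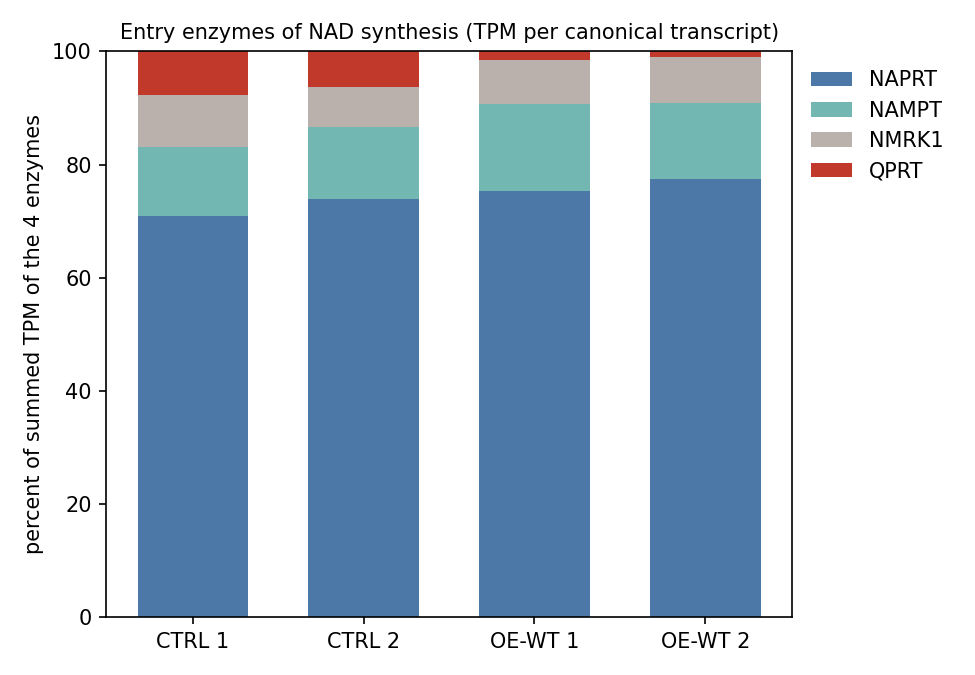
Share of each entry enzyme in the summed TPM of the 4, per canonical transcript, stacked for each library. QPRT takes 7.74% and 6.28% in CTRL and 1.58% and 0.986% in OE-WT, while NAPRT takes between 70.9% and 77.5%.

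The kynurenine pathway makes the quinolinic acid that QPRT uses. Of 12 listed genes, 6 had enough counts to test, and 1 of them rose, a share of 16.7% called beside 21.1% of all genes. This was GOT2, a mitochondrial aminotransferase that also acts on kynurenine, at 264 ± 8.39 CPM in OE-WT and 214 ± 7.22 CPM in CTRL (SD, n = 2), a log2 fold change of 0.31 (SE 0.06, edgeR adjusted p = 0.0017). By edgeR's test 0 of the 6 were lower, as by DESeq2, and 0 at an unadjusted p below 0.05, and the median log2 fold change was 0.06. GOT2 no longer passed when only the library totals were used for scaling, which left 0 of the 6 called. KMO, the hydroxylase of kynurenine, was at 16.7 and 20.3 CPM in OE-WT and at 22.7 and 20.8 CPM in CTRL. Its log2 fold change of -0.23 did not pass the test. KMO shares exon bases with OPN3 on the opposite strand, so its level is uncertain where counting could mix their reads.

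AFMID, the formamidase that supplies kynurenine to KMO, was at 15.01 and 13.4 CPM in OE-WT and at 13.2 and 14.0 CPM in CTRL, with a log2 fold change of 0.06 that did not pass the test. Several other enzymes of the pathway were near the limit of detection. IDO1 and IDO2, which open the tryptophan ring, had 0 counts in the 4 libraries, which allows up to 0.302 CPM in the smallest, and TDO2 had 1 count in all. HAAO, the dioxygenase whose product becomes quinolinic acid, had 1 count in each OE-WT library and 0 in each CTRL library. KYNU had 3 counts in each OE-WT library against 9 and 4 in CTRL, and ACMSD, which diverts the precursor of quinolinic acid, had 1 and 5 in OE-WT and 4 and 2 in CTRL. In CTRL cells the transcript of QPRT was thus present at 10.2 CPM or more while those of IDO1, IDO2, TDO2 and HAAO were at or under the floor of 3 counts.

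Of 17 other NAD enzymes and carriers, 11 were tested, 1 rose and 1 fell (18.2% called, beside 21.1% of all genes), with a median log2 fold change of -0.06. PNP, the phosphorylase that releases nicotinamide from its riboside, was at 136 ± 11.4 CPM in OE-WT and 103 ± 4.99 CPM in CTRL, a log2 fold change of 0.40 (SE 0.07, edgeR adjusted p = 0.00041). SLC3A2, the heavy chain of the transporter that brings in tryptophan and other large amino acids, was at 1362 ± 25.0 CPM in OE-WT and 1862 ± 66.8 CPM in CTRL, a log2 fold change of -0.45 (SE 0.07, edgeR adjusted p = 6.1e-05). SLC7A5, the light chain of that transporter, was at 1128 and 1283 CPM in OE-WT and at 1201 and 1210.5 CPM in CTRL, with overlapping groups. NMRK1, the kinase of nicotinamide riboside, had a log2 fold change of -0.06 and did not pass. NMNAT2, NMRK2, SLC25A52 and SLC5A8 were at 0 in the 4 libraries. With scaling by library totals alone, 4 of the 11 passed the test.

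Of 26 listed consumers of NAD, 23 were tested, 1 rose and 2 fell (13.0% called, beside 21.1% of all genes), with a median log2 fold change of 0.13. PARP1, the main polymerase of poly(ADP-ribose) in the response to DNA breaks, was at 202 ± 2.98 CPM in OE-WT and 151 ± 0.145 CPM in CTRL, a log2 fold change of 0.42 (SE 0.06, edgeR adjusted p = 7.4e-05). PARP10 was at -0.51 (SE 0.11, adjusted p = 0.0015) and the nucleolar deacylase SIRT7 at -0.41 (SE 0.11, adjusted p = 0.00997). PARP15 was at 0 in the 4 libraries. PARP10 shares exon bases with GRINA on the opposite strand and SIRT7 with MAFG on the same strand, so both are uncertain where counting could split reads. Without the first OE-WT library, 5 of the consumers passed the test.

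A further list held 11 dehydrogenases that reduce NADP to NADPH in the cytosol, the mitochondria or the endoplasmic reticulum. Of these, 9 were tested, and 6 passed the test, 4 higher and 2 lower (66.7% called, beside 21.1% of all genes). With scaling by library totals alone, 4 passed, 2 higher and 2 lower. MTHFD2L, a mitochondrial enzyme of folate metabolism, was at 24.9 ± 1.42 CPM in OE-WT and 14.9 ± 0.441 CPM in CTRL, a log2 fold change of 0.74 (SE 0.12, edgeR adjusted p = 1e-04). Its cytosolic relative MTHFD1 rose by 0.41 on the log2 scale (SE 0.07, adjusted p = 0.00014), and PGD and ME1 were the other 2 that rose. H6PD, the hexose-6-phosphate dehydrogenase of the endoplasmic reticulum, was at 16.8 ± 1.39 CPM in OE-WT and 25.1 ± 2.49 CPM in CTRL, a log2 fold change of -0.58 (SE 0.12, adjusted p = 0.0014). IDH2, the mitochondrial isocitrate dehydrogenase, fell by 0.50 on the log2 scale (SE 0.11, adjusted p = 0.002). The list moved in both directions, with a median log2 fold change of 0.09.

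**Figure D4:**
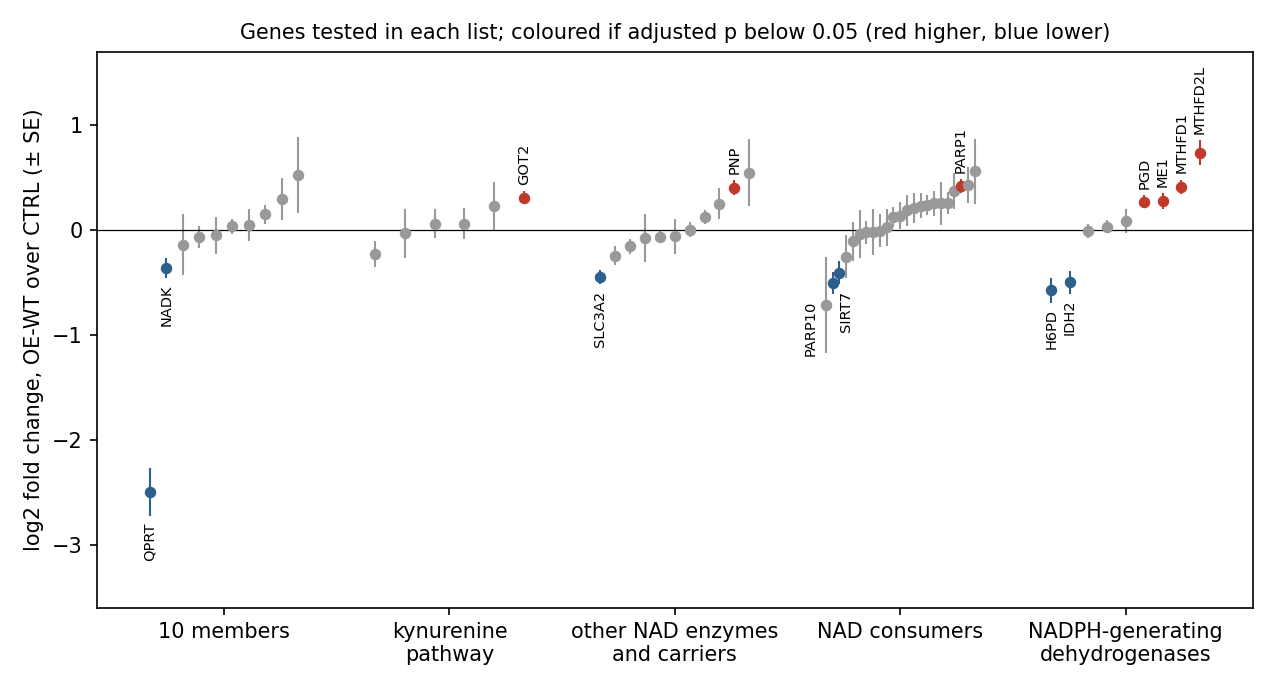
Log2 fold change of OE-WT over CTRL with its SE for the members and the tested genes of the 4 NAD lists (kynurenine pathway, other enzymes and carriers, consumers, NADPH-generating dehydrogenases), ordered within the list, with genes at an adjusted p below 0.05 in red (higher) or blue (lower) and the rest in grey. QPRT, at -2.50, lies far below the other points plotted, which stay between -0.72 and 0.74.

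QPRT lies in the 16p11.2 interval, and genes of this interval were listed from general knowledge. The list is not complete, since MVP-DT and other noncoding genes there were left out, so its shares are not those of the interval. Of 25 listed neighbours 19 were tested, and 7 fell and 1 rose (42.1% called, beside 21.1% of all genes), with a median log2 fold change of -0.04. SEZ6L2, a membrane protein best known in neurons, starts 220 kb from the start of QPRT and was at 56.5 ± 4.71 CPM in OE-WT and 142 ± 7.45 CPM in CTRL, a log2 fold change of -1.33 (SE 0.08, edgeR adjusted p = 1.6e-10). ASPHD1, which starts next to SEZ6L2, was at -0.58 (SE 0.20, adjusted p = 0.049) and YPEL3 at -0.51 (SE 0.15, adjusted p = 0.019). CORO1A, an actin-binding protein, rose by 0.60 on the log2 scale (SE 0.09, adjusted p = 2.9e-05). Among the listed genes that were tested, the nearest to QPRT was KIF22 at 112 kb. It had a log2 fold change of 0.02 and did not pass, nor did MAZ and PAGR1, the next on the list. Genes outside the list were not searched for a nearer one. The next were MVP at 141 kb, which fell by 0.50 on the log2 scale (adjusted p = 0.00012), and CDIPT at 184 kb, which fell by 0.34 (adjusted p = 0.0042). Of the 724 tested genes of chromosome 16, 99 were lower (13.7%) and 52 higher, with a median log2 fold change of -0.05. Without the first OE-WT library, 5 of the listed neighbours passed the test.

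**Figure D5:**
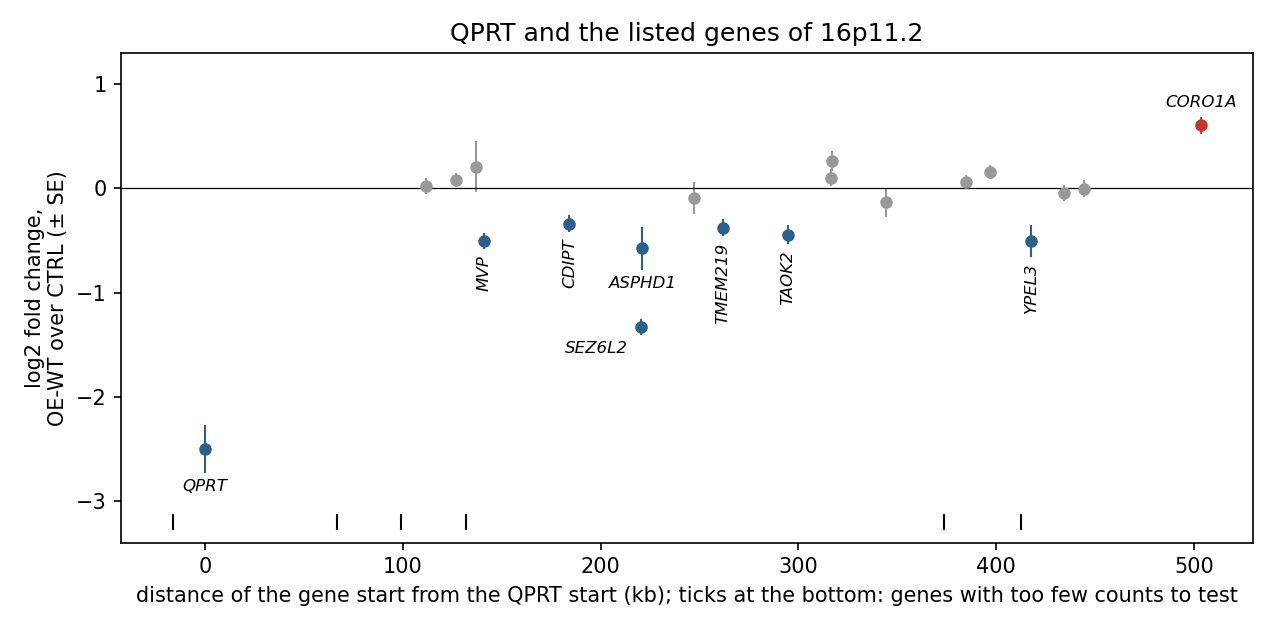
Log2 fold change (OE-WT over CTRL, with SE) of QPRT and the listed 16p11.2 genes that were tested. The horizontal axis is the distance of the gene start from that of QPRT in kb. Red marks higher, blue lower and grey not passing an adjusted p of 0.05. QPRT at -2.50 and SEZ6L2 at -1.33, 220 kb away, stand below the other genes, and KIF22 at 112 kb stands at 0.02.

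Among the 10214 genes with a mean of at least 50 counts, the profiles most like that of QPRT over the 4 libraries (Euclidean distance of log2 CPM, each gene centred on its own mean) were those of ENSG00000258525 (0.453), NPTX2 (0.636), COCH (0.735), ADAM19 (0.735) and MDK (0.763). ENSG00000258525 and COCH overlap on opposite strands of chromosome 14 and may share reads, and NPTX2, ADAM19 and MDK lie on chromosomes 7, 5 and 11. The log2 fold changes of these 5 genes were between -2.49 and -1.94. The nearest member was NADK at 2.20, with 1062 genes nearer to QPRT than it was, and the farthest compared was NADK2 at 2.87, with 8849 genes nearer. With 4 libraries such a distance mostly repeats the contrast between the groups.

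The coding sequences were searched for the codons GAC and GAG, which are read by the aspartate and glutamate transfer RNAs that the study examined. They make up 6.73% of the 297 codons of QPRT, at percentile 54.1 of 11620 tested genes, against a median of 6.43%. NADK is at 7.85% and NAMPT at 4.28%, and the members run from 3.41% (NNT) to 9.29% (NAPRT, percentile 81.6). The paper also built reporters with the alanine codon GCA and the leucine codon UUG (TTG in DNA letters). For QPRT, GCA makes up 2.36% of codons (percentile 81.3) and TTG 0.337% (percentile 9.86). The members run from percentile 15.5 (NNMT) to 97.1 (NNT) for GCA and from 6.91 (NADK) to 92.5 (NMNAT1) for TTG. The GC content of the canonical transcripts runs from 34.4% (NAMPT, percentile 0.783) to 67.8% (NAPRT, percentile 98.9), with QPRT at 56.5%, NADK at 56.7% and NADSYN1 at 58.0%.

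Several members share exon bases with another gene, and whether the counting used strand is not given in the sources used here. NAPRT shares 855 bases with ENSG00000255050 on the opposite strand, where OE-WT had 363 and 410 counts and CTRL 482 and 444, and 64 bases with ENSG00000279605, also opposite, where OE-WT had 1019 and 1000 counts and CTRL 1455 and 1314. NADK2 shares 365 bases with SKP2 on the opposite strand, where OE-WT had 285 and 270 counts and CTRL 218 and 211. NAMPT shares 545, NNT 295 and NMNAT3 264 bases with an antisense gene, each of which had at most 50 counts in a library. QPRT shares 38 bases with SPN on the same strand, which had 0 to 2 counts in each library. NMNAT1 and NMNAT3 share 436 and 281 bases with a gene on the same strand that was at 0, and the NAMPT pseudogene NAMPTP1 had 1 to 4 counts per library. Among the other genes named, KMO, MTHFD1 and MAZ share 1691, 1556 and 1536 bases with an antisense gene. CDIPT, CORO1A, PNP, CDH1 and MTHFD2L share 655, 532, 492, 347 and 174 with an antisense gene. KRT8 and KRT18 share 525 bases with each other on opposite strands, ASPHD1 shares 333 with KCTD13 and MVP shares 185 with PAGR1. The list of overlaps of these other genes is not complete. Reads in these bases may have been set aside or assigned to either gene. Their part in the values of NAPRT, NADK2 and these other genes was not tested.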

How the data were processed

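RNA sequencing libraries of DLD1 cells were compared between OE-WT and CTRL, with 2 libraries per group. GEO's labels list 2 lanes for each library, while the table has 1 column per library. The authors deposited raw gene counts on GRCh38. The paper's methods name Cutadapt, HISAT2 and HTSeq, removal of ribosomal RNA and 3 replicates, whereas the labels give poly(A) selection with a stranded kit, and the submitters' processing notes name HISAT2 2.2.1, featureCounts 2.0.0 and DESeq2 1.34.0. The series' design text speaks of separate TRMT6 and TRMT61A groups, and the labels of 1 combined group. The annotation release and the strand setting of the counting are not given in the sources used here.

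GENCODE release 44 matched 57532 of 58302 identifiers. edgeR 4.0.16 in R 4.3.3 was run over the whole table with its default filter by group (minimum count 10), TMM scaling and quasi-likelihood F tests on the group term alone, with Benjamini-Hochberg adjustment over 14133 genes. The SE of a log2 fold change was taken as its size over the root of F. The fit was first run on simulated counts with the same spread setting for every gene, which checks the code and not these libraries. The floor for a gene at 0 was set at 3 counts, between 0.233 and 0.302 CPM by library. With 2 against 2 libraries an exact permutation test (two-sided) cannot give a p under 0.333. Replicates differed by more than sampling noise (chi-square of 4.81 per gene in OE-WT and 4.44 in CTRL).

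Alternative fits used DESeq2 1.42.0, size factors by RLE, library totals alone, a filter of 1 count in total or 10 counts per library, the replicate number as a block, or 3 of the 4 libraries. TPM were also computed by longest coding or canonical transcript (the last chosen after seeing the data). RefSeq windows (GRCh38.p14) gave 1 start per gene, the one nearest to the canonical start, which for NADK lay 346 bases away. The members, lists and rules were chosen with earlier results of these data known. Named besides the members are TRMT6 and TRMT61A, up to 4 genes per list with the largest log2 fold changes among those with an adjusted p below 0.05 and a mean of at least 50 counts, the 5 nearest profiles, the gene behind QPRT, and pathway genes at 0. KRT8, KRT18, KRT20, CDH1, COL1A1, VWF, AFMID, SLC7A5, MVP, CDIPT, the enzymes under the floor, KMO, NMRK1, KIF22, MAZ, PAGR1, PGD, ME1, the genes labelled in plots and the overlapping genes were named after their values were seen.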

Additional observations from a re-analysis of the deposited data

How the results depend on the processing

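The log2 fold change of QPRT was from -2.59 to -2.50 over the 6 alternatives that use all libraries and from -2.83 to -2.23 with 1 library left out, a description only, since these libraries chose it. The number of genes passing was 2976 (1334 higher, 1642 lower), 3184 with library size only (733 higher, 2451 lower), 1377 with DESeq2 and between 1903 and 2852 with 1 library left out, the lowest without the first CTRL library. Members passing were 2, but 1 with DESeq2 and between 1 and 2 with a library left out, NADK being lost without the first CTRL library. The kynurenine pathway had 0 genes passing by edgeR with library size only (1 otherwise), and the other NAD enzymes and carriers had 4 with library size only and 2 to 3 with a library left out. With a library left out, the NAD consumers had between 2 and 5, the NADPH-generating dehydrogenases between 5 and 6 (4 with library size only), and the 16p11.2 neighbours between 5 and 8. Scaling by library size only moved the median of all genes by -0.09 (log2), which turned NAPRT to -0.06, and NNT lay between -0.11 and 0.22 with a CTRL library left out.

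With a replicate block, QPRT was at -2.50 and 2 members passed. The numbers are only names here: the deviations of same-numbered libraries correlated at -0.085 over 14133 genes. DESeq2 gave no adjusted p for NMNAT3 and NNMT, whose counts are low. Leave-one-out fits assume that the lone library varies like those of the other group. The TPM of NAMPT and NADSYN1 in CTRL was 3.43 and 3.27 per combined exon length, but 13.5 and 14.5 per canonical transcript, and that of NMNAT3 was 0.401 and 1.87.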
